A study of Mus musculus with 20 samples.

Results

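A set of 10 genes that carry transforming growth factor beta (TGF-beta) signals, restrain them or drive the change of endothelial into mesenchymal cells was followed: the ligands Tgfb1 and Tgfb3, the receptors Tgfbr1, Tgfbr2 and Acvrl1, the inhibitory SMADs Smad6 and Smad7, and the transcription factors Snai1, Snai2 and Twist1. They were chosen by symbol, and all 10 were found among the 32081 genes with FPKM values and among the 20442 genes with variance-stabilized values. All 10 also passed the low-value filter, a mean FPKM of at least 0.5, which left 16848 genes to test. FPKM is a read count scaled to gene length and library depth. The RNA came from aortic endothelium of female mice lacking Apoe on both alleles (strain B6.129P2-Apoetm1Unc/J), fed regular chow, in which every animal, controls included, had a 5/6 nephrectomy at 9 weeks of age. A single retro-orbital injection was given 7 weeks after surgery and tissue was taken 1 week later. All groups compared here were thus operated and Apoe-deficient. There were 5 groups with 4 animals each: saline, HDL alone (4 mg of high-density lipoprotein), the same HDL dose with LNA92a, with LNA489, or with both (the dual group). The LNAs, antisense oligonucleotides with locked nucleic acid bases, are named for miR-92a and miR-489. Each was dosed at 20 mg/kg, so the dual group had 40 mg/kg in total. LNA92a and LNA489 below mean the groups that also received HDL. Each library is 1 mouse, and values are given in the order of animal numbers: saline 1, 2, 9 and 24, then HDL 3, 4, 11 and 23, then LNA92a 5, 12, 17 and 18, then LNA489 7, 13, 14 and 19, then dual 8, 10, 15 and 21.

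TGF-beta ligands bind the type II receptor Tgfbr2, which recruits and activates a type I receptor. Tgfbr1 passes the signal to Smad2 and Smad3 in most cells, and endothelial cells also carry Acvrl1, a type I receptor for bone morphogenetic proteins and TGF-beta that signals through Smad1, Smad5 and Smad9. Smad6 and Smad7 are induced by the pathway and block it. Snai1, Snai2 and Twist1 repress endothelial and epithelial junction genes, and their activity in endothelium is a hallmark of the transition to mesenchymal cells.

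Because the treatments target 2 microRNAs, the 3' UTRs of the 10 genes were searched for the 7 bases that pair with each seed (bases 2 to 8 of the microRNA, in capitals below). The mature sequences are from RefSeq (GRCm38.p6). miR-92a-3p lies at chr14:115044476-115044496 on the plus strand (Mir92-1) and chrX:52741854-52741874 on the minus strand (Mir92-2), and miR-489-3p at chr6:3721922-3721944 on the minus strand (Mir489). The capitals in the UTR stretches mark the match, and each UTR is that of 1 transcript in GENCODE M21.
miR-92a-3p: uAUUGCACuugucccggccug
miR-489-3p: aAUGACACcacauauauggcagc
Smad6 site for miR-92a-3p: tttatatatgGTGCAATgtgtgtatat
Tgfbr2 site for miR-489-3p: ctggaatatgGTGTCATgttactgtgg
The match GTGCAAT occurred in the 3' UTRs of Smad6 (bases 199 to 205 of 448 after the stop codon) and Smad7 (bases 1377 to 1383 of 1570), and in 7.506% of the 12950 UTRs searched. The match GTGTCAT occurred in Tgfbr2 (bases 2378 to 2384 of 6085) and in 10.17% of those UTRs. The UTRs searched had a median length of 1158 bases, and these shares are not matched for length. Only the strand of the transcript was searched. A match describes the letters and is not evidence of a site that is used.

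Assigned reads numbered 11.6 to 21.4 M per library, recovered as whole reads from FPKM and gene length, and 17378 to 23365 genes had at least 1 read. The labelled tissue was checked against fixed marker lists. All 18 endothelial markers were above 0 in every library, but Pecam1 ranged from 10.8 to 1008.5 FPKM and Cdh5 from 4.51 to 184 FPKM. All 11 fibroblast markers were above 0 in every library too, with Pdgfra from 0.287 to 29.6 and Dpt from 1.27 to 308 FPKM. The summed FPKM of the lists ran from 97.8 to 3083.8 (endothelial), from 107 to 2979.8 (fibroblast), from 638 to 11194.8 (macrophage, 12 of 12 markers above 0 in all libraries) and from 26.2 to 3089.8 (adipocyte, 7 of 8 markers above 0 in all, Lep being at 0 in HDL 23, LNA92a 18 and dual 21). Smooth muscle markers summed to 18.5 to 115 FPKM (9 of 9 above 0 in all) and lymphocyte markers to 16.1 to 820 FPKM (8 of 9, Ltb being at 0 in LNA489 7).

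An endothelial score and a fibroblast score, each the mean variance-stabilized value (log2 scale) of its list, stood for the content of those cells in each library. In bulk RNA, fewer cells of a type and less RNA per cell cannot be told apart. The endothelial score ran from 8.39 (HDL 4) to 12.07 (HDL 23) and the fibroblast score from 7.44 (saline 9) to 12.11 (LNA92a 12). Across the 20 libraries the 2 scores ran against each other (Pearson r = -0.63, permutation p = 0.00334). The fibroblast score moved almost in step with the adipocyte score (r = 0.97). No difference of either score between treatment groups passed in 10 exact 2-sided permutation tests of 4 against 4 (raw p from 0.143 to 0.971, all adjusted to 0.971, the smallest possible raw p being 0.0286). After adjustment over 10 tests a single difference at that smallest p could not pass, so these tests do not show that content was alike. The largest difference was 1.40 log2, in the fibroblast score of LNA92a against HDL.

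Levels per length differed widely among the 10 genes. By the median FPKM over 20 libraries the order was Tgfbr2 (47.3), Tgfb1 (16.3), Tgfbr1 (16.1), Acvrl1 (14.5), Smad7 (13.7), Smad6 (10.6), Twist1 (8.28), Tgfb3 (7.10), Snai2 (1.19) and Snai1 (0.698). Tgfbr2 exceeded Tgfb1 in 20 of 20 libraries, and Tgfb3 exceeded Snai2 in 19 of 20. The 6 neighbouring pairs from Tgfb1 down to Tgfb3 kept no such order: Tgfb1 was above Tgfbr1 in only 4 of 20 libraries, and Smad6 was above Twist1 in 11 of 20. Snai2 was above Snai1 in 15 of 20. Levels also spread differently between libraries, from 2.86-fold for Tgfbr2 between its lowest and highest library to 22.4-fold for Smad6, leaving aside Snai1, which had no read in 1 library.

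Among the ligands, Tgfb1, the isoform most cells make, was high where fibroblast markers were low, and Tgfb3, an isoform typical of mesenchymal cells, was high where they were high. Tgfb1 (ENSMUSG00000002603.15, chromosome 7, 25687002 to 25705077 on GRCm38) had 8.34, 16.0, 45.7 and 26.1 FPKM with saline, 25.6, 4.69, 35.0 and 22.4 with HDL and 4.70, 10.1, 7.75 and 17.0 with LNA92a. It had 5.04, 41.9, 12.4 and 10.7 FPKM with LNA489 and 13.3, 29.0, 16.7 and 36.0 in the dual group. The highest libraries were saline 9 and LNA489 13, the lowest HDL 4 and LNA92a 5, and all groups overlapped.

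Tgfb3 (ENSMUSG00000021253.6, chromosome 12, 86056745 to 86079041) had 7.04, 5.49, 2.23 and 1.75 FPKM with saline, 3.04, 15.7, 4.53 and 6.36 with HDL and 8.96, 27.3, 7.29 and 5.90 with LNA92a. It had 8.39, 5.32, 20.1 and 9.88 FPKM with LNA489 and 7.16, 10.7, 17.0 and 3.23 in the dual group. LNA92a 12 and LNA489 14 were highest and saline 24 lowest. Gm37804 and Gm48008 overlap its exons on the other strand, and with the strand of counting not given here its value is uncertain.

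Slopes were fitted with limma across all genes with the treatment group in the model, as the log2 change per 1 SD of a score (1.26 for endothelial, 1.42 for fibroblast). Tgfb1 fell by 0.71 ± 0.10 (SE) per SD of fibroblast score (adjusted p = 3.4e-05), and Tgfb3 rose by 0.83 ± 0.093 (adjusted p = 1.12e-06). Over the 20 libraries, in 20 such relations computed, the correlation with the fibroblast score was r = -0.85 and rho = -0.86 for Tgfb1 (permutation p = 2e-05 and 1e-05) and r = 0.90 and rho = 0.89 for Tgfb3 (permutation p = 2e-05 for both). Without the 2 libraries farthest from the median score r was -0.80 and 0.89. Against the endothelial score Tgfb1 had a slope of 0.47 ± 0.14 (adjusted p = 0.0189) and Tgfb3 of -0.64 ± 0.13 (adjusted p = 0.00154). Both calls were lost with the fibroblast score in the same fit, where the endothelial slope was 0.066 for Tgfb1 (adjusted p = 0.797) and -0.23 for Tgfb3 (adjusted p = 0.164). The Tgfb1 call was also lost without saline 1 (0.43, adjusted p = 0.0518) and without HDL 4 (0.36, adjusted p = 0.102). The Tgfb1 to Tgfb3 ratio of FPKM ran from 0.299 in HDL 4 to 20.5 in saline 9 and was above 1 in 14 of 20 libraries. In the 4 libraries of each group its lowest and highest values were 1.18 and 20.5 with saline, 0.299 and 8.42 with HDL, 0.372 and 2.88 with LNA92a, 0.600 and 7.89 with LNA489, and 0.980 and 11.2 in the dual group.

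**Figure D1:**
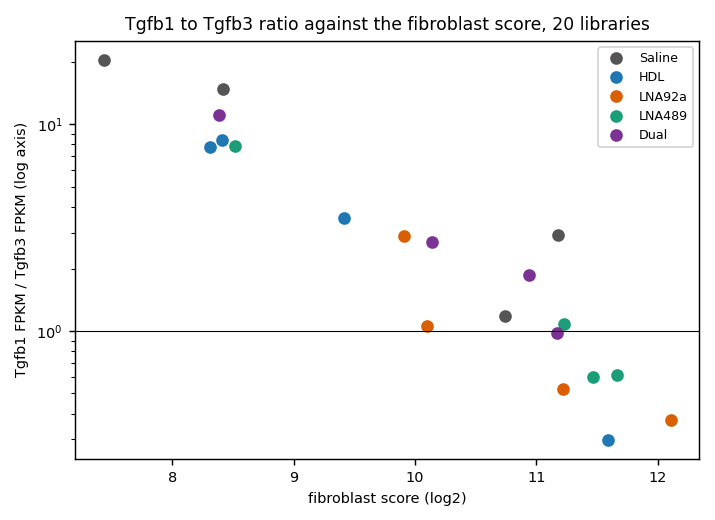
Ratio of Tgfb1 to Tgfb3 FPKM (log axis) against the fibroblast score (log2) in 20 libraries, each point a library coloured by group, with a line at 1. The ratio was 20.5 in saline 9, which had the lowest fibroblast score, and 0.372 in LNA92a 12, which had the highest.

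Among the receptors, Acvrl1, the endothelial type I receptor, followed endothelial content closely, Tgfbr1 had a called slope on each score fitted alone, and Tgfbr2 on neither. Acvrl1 (ENSMUSG00000000530.16, chromosome 15, 101128522 to 101145336) had 5.76, 10.3, 23.1 and 43.7 FPKM with saline, 43.9, 5.08, 10.3 and 49.5 with HDL and 2.89, 10.5, 15.5 and 20.8 with LNA92a. It had 6.72, 20.3, 8.57 and 13.5 FPKM with LNA489 and 16.2, 23.0, 8.33 and 35.3 in the dual group. Within each group the spread was thus several-fold, and all groups overlapped. Gm16031 overlaps its exons on the other strand, so its value is uncertain in the same way as that of Tgfb3. Its endothelial slope was 0.91 ± 0.056 (adjusted p = 1.07e-09), and the score accounted for 96.2% of the variance left within groups. The correlation over 20 libraries was r = 0.97 and rho = 0.97 (permutation p = 1e-05 for both, the smallest that 100000 permutations can give). It was r = 0.97 without the 2 libraries farthest from the median score.

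Tgfbr1 (ENSMUSG00000007613.15, chromosome 4, 47353222 to 47414931) had 10.7, 15.4, 66.1 and 32.1 FPKM with saline, 30.8, 7.55, 16.2 and 25.9 with HDL and 6.89, 9.81, 8.11 and 18.1 with LNA92a. It had 15.9, 51.0, 15.3 and 14.6 FPKM with LNA489 and 23.2, 30.9, 12.7 and 39.7 in the dual group. Saline 9 and LNA489 13, the highest libraries for Tgfb1, were also highest here, and all groups overlapped. Group means were 31.1 ± 25.1 with saline, 20.1 ± 10.4 with HDL, 10.7 ± 5.04 with LNA92a, 24.2 ± 17.9 with LNA489 and 26.6 ± 11.5 FPKM in the dual group (SD, 4 libraries each). It rose with the endothelial score (0.50 ± 0.11, adjusted p = 0.00199) and fell by 0.61 ± 0.097 per SD of the fibroblast score (adjusted p = 8.42e-05). With both scores in 1 fit its endothelial slope was 0.24 ± 0.11 and no longer called (adjusted p = 0.180). Tgfbr2 (ENSMUSG00000032440.13, chromosome 9, 116084293 to 116175360) was the steadiest, with 27.1, 49.8, 53.4 and 41.6 FPKM with saline, 65.8, 42.8, 51.0 and 48.8 with HDL and 28.8, 68.6, 24.0 and 36.8 with LNA92a. It had 38.4, 58.2, 68.4 and 38.2 FPKM with LNA489 and 40.5, 61.2, 46.3 and 48.4 in the dual group. Its slopes were -0.041 ± 0.075 (endothelial, adjusted p = 0.721) and 0.058 ± 0.081 (fibroblast, adjusted p = 0.582). Its correlation with the macrophage score was r = 0.36 over the 20 libraries and r = 0.71 with group means removed, given as a description. For Tgfbr1 the same correlations were r = 0.43 and r = 0.29. The macrophage score was 11.3 ± 0.327 in the dual group and 10.2 ± 0.657 with HDL (SD, exact permutation p = 0.0286, the smallest possible, not adjusted over the lists).

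The promoters of Tgfb1 and Tgfbr1 are shown because the 2 genes moved together across libraries (r = 0.79 and rho = 0.83, permutation p = 8e-05 and 4e-05, of 45 pairs among the 10 genes). The pairs among Acvrl1, Smad6 and Smad7 had higher r (0.85 to 0.94), but Acvrl1 and Smad7 had no promoter entry. Tgfb1 and Tgfbr1 both also fell with the fibroblast score (r = -0.85 and -0.77). Shared control of the 2 promoters was not tested. They run from 250 bases before to 50 after the start site (RefSeq, GRCm38.p6), at chr7:25686752-25687051 and chr4:47352972-47353271, both on the plus strand. Capitals mark matches, on either strand, to the E-box CAGGTG that Snai1 and Snai2 bind, the GC-rich SMAD element GGCGCC and the ETS core GGAAGT.
Tgfb1: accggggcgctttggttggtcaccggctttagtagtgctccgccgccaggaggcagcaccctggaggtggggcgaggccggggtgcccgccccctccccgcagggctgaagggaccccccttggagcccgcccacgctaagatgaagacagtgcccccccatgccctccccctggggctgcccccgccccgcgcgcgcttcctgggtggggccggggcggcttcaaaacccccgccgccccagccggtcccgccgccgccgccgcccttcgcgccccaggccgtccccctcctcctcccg
Tgfbr1: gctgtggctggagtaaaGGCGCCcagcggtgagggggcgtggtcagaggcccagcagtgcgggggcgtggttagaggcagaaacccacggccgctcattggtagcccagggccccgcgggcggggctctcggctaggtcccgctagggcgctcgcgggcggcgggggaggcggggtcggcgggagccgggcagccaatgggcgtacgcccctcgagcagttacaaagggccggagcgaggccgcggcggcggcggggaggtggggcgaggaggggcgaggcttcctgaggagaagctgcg
Tgfb1 held none of the 3 motifs and Tgfbr1 held GGCGCC at -233. Of 32851 promoters of this length, 20.21% held the E-box, 11.87% GGCGCC and 23.77% GGAAGT. Their GC content was 77% and 74.67%, against a median of 52.67% over all promoters. Of the 10 genes, 6 had an entry. Snai1 held an E-box at -126, Smad6, Tgfbr2 and Twist1 held none of the motifs, and a second Tgfbr1 start held GGAAGT at -171.

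**Figure D2:**
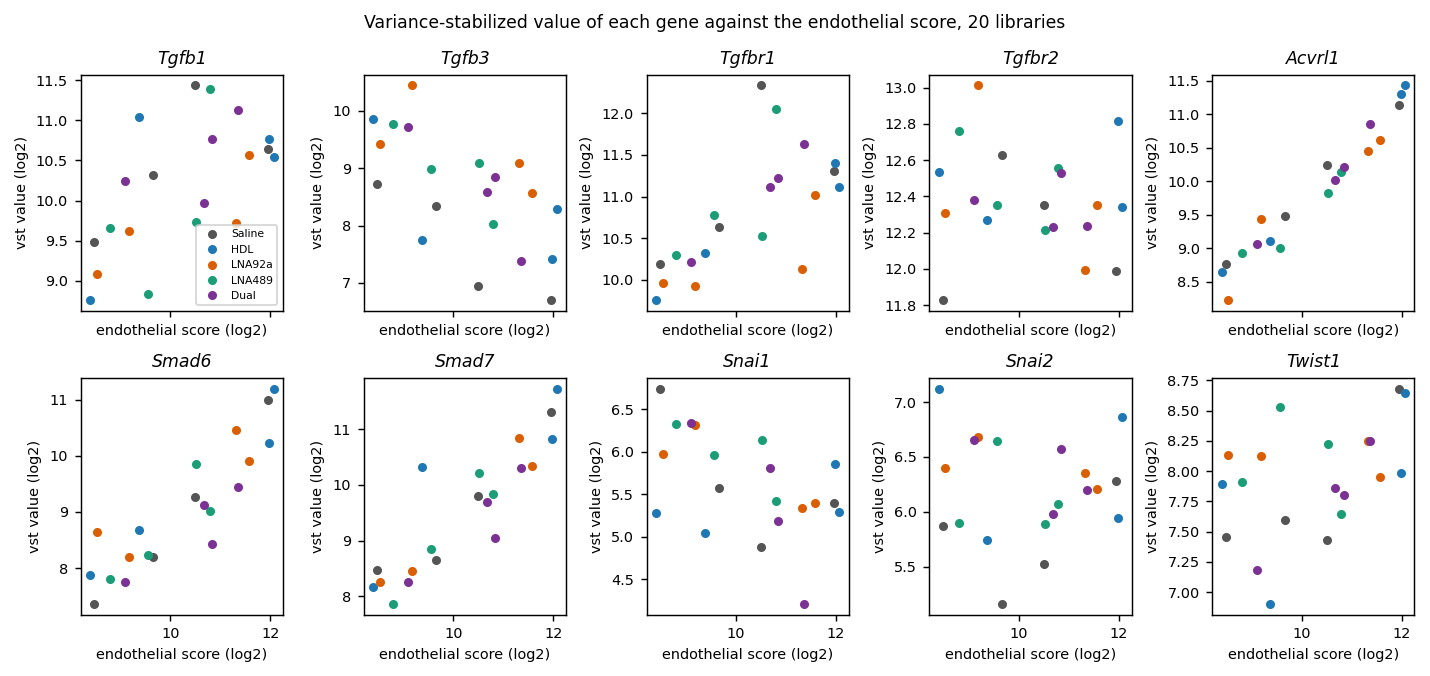
Variance-stabilized value (log2) of each gene against the endothelial score (log2), each point 1 of 20 libraries coloured by group. Acvrl1, Smad6 and Smad7 rise along the score (r = 0.97, 0.89 and 0.89), whereas Tgfbr2 and Snai2 do not (r = -0.14 and -0.04).

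The inhibitory SMADs rose with endothelial content, as Acvrl1 did. Smad6, which mainly restrains bone morphogenetic protein receptors, lies on chromosome 9 (63953076 to 64022059, ENSMUSG00000036867.7). It had 2.49, 5.18, 15.2 and 52.6 FPKM with saline, 27.4, 3.73, 9.91 and 55.8 with HDL, 5.29, 5.53, 20.7 and 16.8 with LNA92a, 5.02, 12.0, 4.80 and 18.3 with LNA489, and 11.3, 8.18, 4.03 and 17.1 in the dual group. Smad7, which blocks Tgfbr1 and bone morphogenetic protein receptors, lies on chromosome 18 (75367529 to 75395935, ENSMUSG00000025880.11). It had 4.34, 5.25, 16.0 and 46.3 FPKM with saline, 29.5, 3.29, 23.5 and 57.2 with HDL, 2.80, 4.74, 19.3 and 16.1 with LNA92a, 5.66, 15.4, 3.56 and 16.7 with LNA489, and 12.1, 9.33, 4.28 and 22.5 in the dual group. For both genes HDL 23 was the highest library and saline 24 the next, and every group overlapped every other. Their endothelial slopes were 1.01 ± 0.10 for Smad6 (adjusted p = 6.37e-07) and 1.03 ± 0.10 for Smad7 (adjusted p = 9.06e-07). The 2 genes correlated with each other at r = 0.94 (rho = 0.92, permutation p = 1e-05 for both), and with Acvrl1 at r = 0.85 (Smad6) and 0.87 (Smad7). Both are genes whose 3' UTRs match the miR-92a-3p seed printed above.

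Against the fibroblast score Smad6 fell by 0.72 ± 0.22 (adjusted p = 0.0156) and Smad7 by 0.86 ± 0.20 (adjusted p = 0.00252). Both calls were lost with the endothelial score in the same fit, where the fibroblast slope was 0.038 for Smad6 (adjusted p = 0.873) and -0.20 for Smad7 (adjusted p = 0.324). The Smad6 call was also lost without HDL 4 (-0.63, adjusted p = 0.0683).

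Of the transcription factors, Snai1 had a called slope on the fibroblast score, and Snai2 and Twist1 had none on either score fitted alone. Snai1 (ENSMUSG00000042821.7, chromosome 2, 167538195 to 167542814), a repressor of cadherin genes, had 2.78, 0.711, 0.213 and 0.683 FPKM with saline, 1.25, 0.388, 0.333 and 0.518 with HDL, 0.903, 1.98, 0.356 and 0.478 with LNA92a, 1.14, 0.684, 2.38 and 1.57 with LNA489, and 1.07, 0.462, 2.13 and 0 in the dual group. These rest on 0 to 77 reads per library. With no read in dual 21, an expected count of up to about 3 reads could still have been missed there. Snai1 rose with the fibroblast score (0.42 ± 0.12, adjusted p = 0.0111), a call lost with both scores in 1 fit (0.39 ± 0.17, adjusted p = 0.0891). Its correlation with the smooth muscle score was r = 0.68, the same as with the fibroblast score. Against the endothelial score its slope was -0.28 ± 0.13 (adjusted p = 0.116), which passed only without HDL 3 (-0.36, adjusted p = 0.0467).

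Snai2 (ENSMUSG00000022676.6, chromosome 16, 14705852 to 14709385), a related repressor, had 0.828, 0.267, 0.679 and 1.87 FPKM with saline, 1.12, 3.06, 0.965 and 3.15 with HDL, 1.19, 2.33, 1.18 and 1.19 with LNA92a, 1.98, 1.38, 1.14 and 0.913 with LNA489, and 1.08, 2.60, 2.38 and 1.67 in the dual group. These rest on 8 to 113 reads. HDL 4 and HDL 23 were the highest libraries, and saline and HDL overlapped. Its slopes were -0.045 ± 0.11 (endothelial, adjusted p = 0.795) and 0.13 ± 0.11 (fibroblast, adjusted p = 0.373).

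Twist1 (ENSMUSG00000035799.5, chromosome 12, 33957671 to 33959829), a basic helix-loop-helix factor of mesenchymal cells, had 5.35, 6.33, 7.18 and 19.5 FPKM with saline, 10.1, 7.47, 4.52 and 17.4 with HDL and 7.09, 10.3, 8.06 and 7.62 with LNA92a. It had 12.4, 8.11, 10.3 and 10.8 FPKM with LNA489 and 8.45, 9.91, 4.91 and 13.7 in the dual group. Saline 24 and HDL 23 stood highest, as for Smad6 and Smad7. Group means were 9.59 ± 6.64 with saline, 9.88 ± 5.52 with HDL, 8.27 ± 1.42 with LNA92a, 10.4 ± 1.79 with LNA489 and 9.25 ± 3.65 FPKM in the dual group (SD, 4 libraries each). Its endothelial slope was 0.23 ± 0.10 (adjusted p = 0.0884, and 0.0499 with a slope of 0.27 without LNA489 13), and its fibroblast slope was -0.002 ± 0.12 (adjusted p = 0.990).

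**Figure D3:**
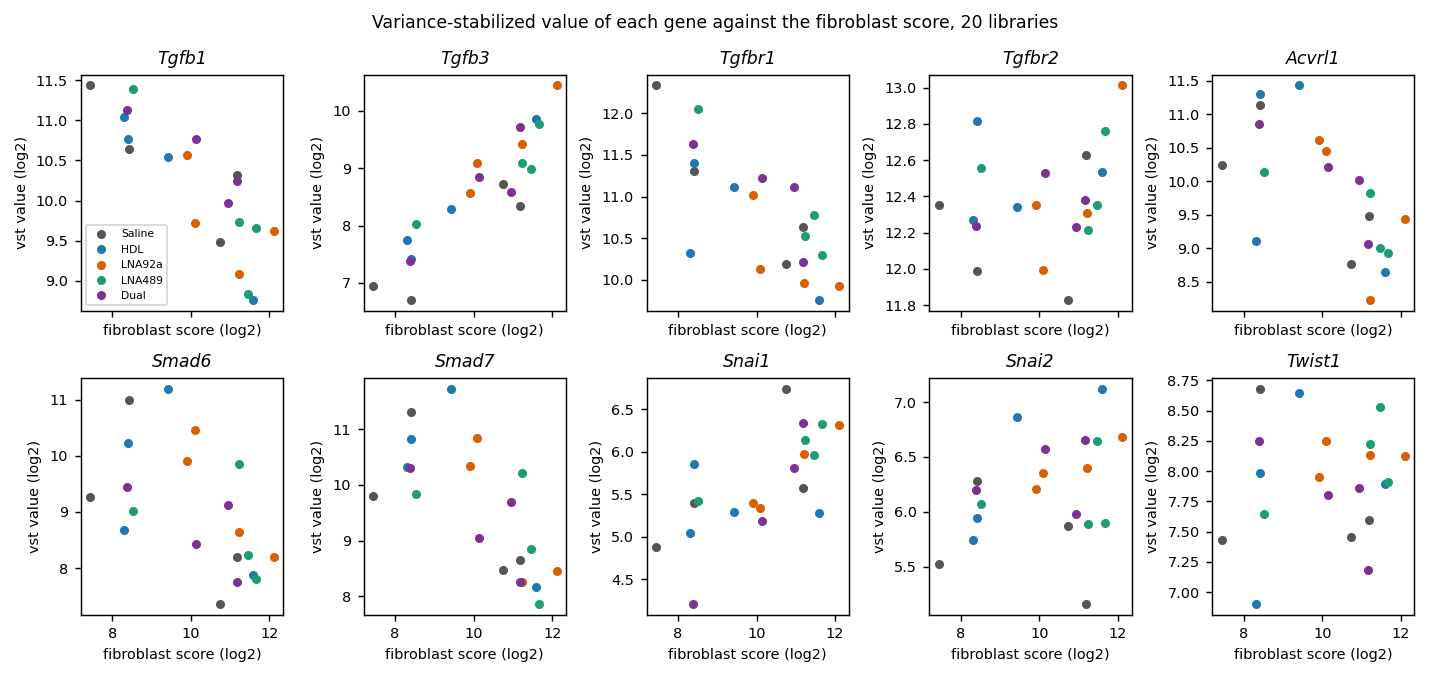
Variance-stabilized value (log2) of each gene against the fibroblast score (log2), each point 1 of 20 libraries coloured by group. Tgfb3 and Snai1 rise along the score (r = 0.90 and 0.68), and Tgfb1 and Tgfbr1 fall (r = -0.85 and -0.77).

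Counted together, 5 of the 10 genes were called with a positive endothelial slope (adjusted p under 0.05; Acvrl1, Smad6, Smad7, Tgfbr1, Tgfb1) against 13.9% of all 16830 genes tested, and 1 was called with a negative one (Tgfb3) against 14.7%. For the fibroblast score 2 were called positive (Tgfb3, Snai1) against 18.7% of 16837 genes, and 5 were called negative (Smad7, Tgfb1, Smad6, Acvrl1, Tgfbr1) against 20.8%. The marker genes of each list were left out of that list's count. The median slopes were 0.35 and -0.30 for the 10 genes, and 0.02 and -0.06 for all genes. Because the scores were opposed, both were then put in 1 fit. There the endothelial slope was called positive for Acvrl1 (0.92 ± 0.075), Smad6 (1.03 ± 0.13), Smad7 (0.91 ± 0.13) and Twist1 (0.42 ± 0.12, adjusted p = 0.0268), 4 of 10 against 7.55% of 16819 genes, and 0 of 10 were called negative against 2.11%. The fibroblast slope in that fit was called positive for Tgfb3 (0.66 ± 0.11, adjusted p = 0.00028), 1 of 10 against 13.9%, and called negative for Tgfb1 (-0.66 ± 0.14, adjusted p = 0.00215) and Tgfbr1 (-0.44 ± 0.12, adjusted p = 0.0107), 2 of 10 against 11.6%. The difference of the 2 slopes in that fit was called positive for 5 genes (Acvrl1, Smad6, Smad7, Tgfb1, Tgfbr1) against 23% and called negative for 2 (Tgfb3, Snai1) against 20%. The adipocyte score was instead added to the fit of each score alone, and then no gene of the whole table had a called fibroblast slope. In the fit of the endothelial score with the adipocyte score, Acvrl1, Smad6 and Smad7 were the only ones of the 10 with a called endothelial slope (0.88, 1.06 and 0.97). Fibroblast and adipocyte content therefore cannot be told apart in these slopes.

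**Figure D4:**
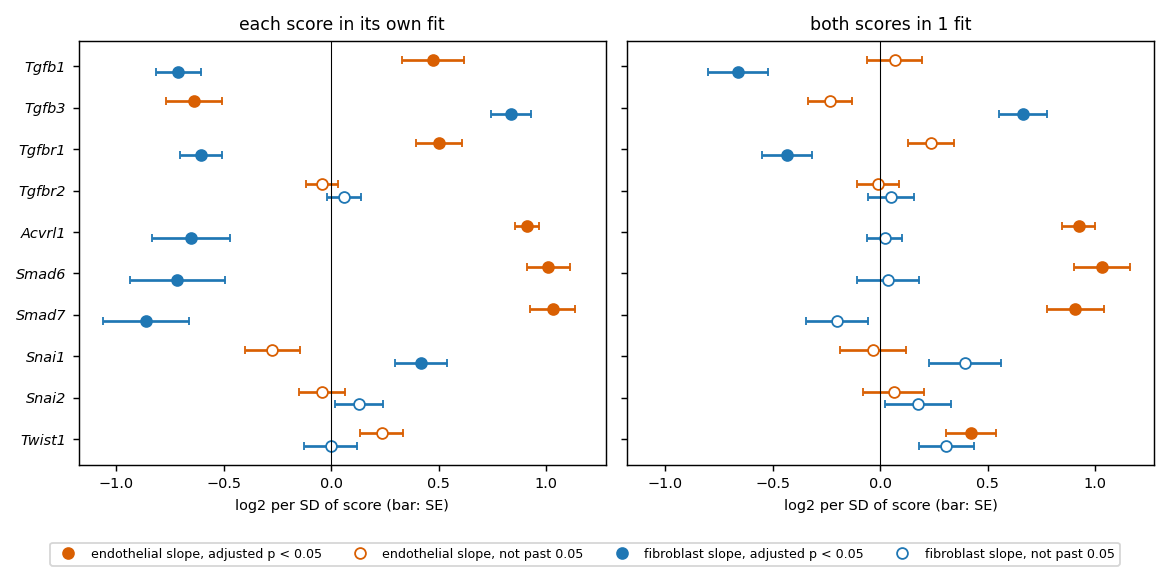
Slope of each gene (log2 per SD of score, bars SE) against the endothelial score (orange) and the fibroblast score (blue), each score in its own fit (left) and both in 1 fit (right), filled where the adjusted p is under 0.05. The slopes of Acvrl1 and Smad6 on the fibroblast score, -0.65 and -0.72 alone, were 0.022 and 0.038 in the joint fit.

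Between treatment groups, none of the 10 genes passed an adjusted p of 0.05, and the same held for all 16848 genes (0% called) in HDL against saline, LNA92a against HDL, LNA489 against HDL, dual against HDL, dual against saline, the non-additive contrast (dual minus both single inhibitor groups plus HDL) and the F-test over 5 groups. At an unadjusted p under 0.05 limma counted 281, 595, 638, 416, 177, 530 and 283 genes in that order, and voom on the recovered reads 308, 488, 676, 558, 247, 531 and 271, with 0 called after adjustment as well. Every one of these counts was a share of the 16848 genes below 0.05, the share that this cut-off gives on average when no gene differs. Of the 10 genes only Snai2 was among those 281, higher with HDL than with saline by 0.71 ± 0.32 log2 (limma adjusted p = 1.000). It was not among the genes with an unadjusted limma p under 0.05 when saline 2, saline 9, HDL 4 or HDL 23 was left out.

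The other differences with the smallest p were Tgfb3 in LNA92a against HDL (1.05 ± 0.60, adjusted p = 0.867), Snai1 in LNA489 against HDL (0.60 ± 0.43, adjusted p = 0.920), Smad7 in dual against HDL (-0.93 ± 0.80, adjusted p = 0.998), Snai2 in dual against saline (0.65 ± 0.32, adjusted p = 1.000) and Tgfb3 in the non-additive contrast (-1.38 ± 0.85, adjusted p = 0.930). Leaving out 1 library moved the Smad7 difference to -1.63 (without HDL 4), -0.44 (without HDL 23) or -0.57 (without dual 15), and that of Tgfb3 in LNA92a against HDL to 0.70 (without LNA92a 12). Comparisons with HDL share the HDL libraries. No gene of the 10 had groups that did not overlap in any of the 5 pairwise comparisons, against 0.973%, 2.22%, 1.54%, 1.88% and 0.962% of genes in the order above. Medians over the 10 genes were 0.25, -0.13, -0.16, -0.07 and 0.02 log2, beside 0.03, -0.06, -0.05, -0.03 and 0.00 over all genes. The precision was limited: the SE of Smad6 in dual against HDL was 0.78 log2. With both scores in the model it was 0.31, and the difference -0.86 for Smad6 and -0.86 for Smad7 (adjusted p = 0.843 for both). With array weights, which let libraries count unequally, the differences were -1.81 for Smad6 and -1.80 for Smad7 (adjusted p = 0.210 and 0.213). The genes with a seed match were also followed in the limma fits that left out 1 library. In LNA92a against HDL the difference ran from -0.73 to 0.37 log2 for Smad6 and from -1.48 to -0.29 for Smad7. For Tgfbr2 in LNA489 against HDL it ran from -0.11 to 0.089. The smallest adjusted p in these fits was 0.321, for Smad7.

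**Figure D5:**
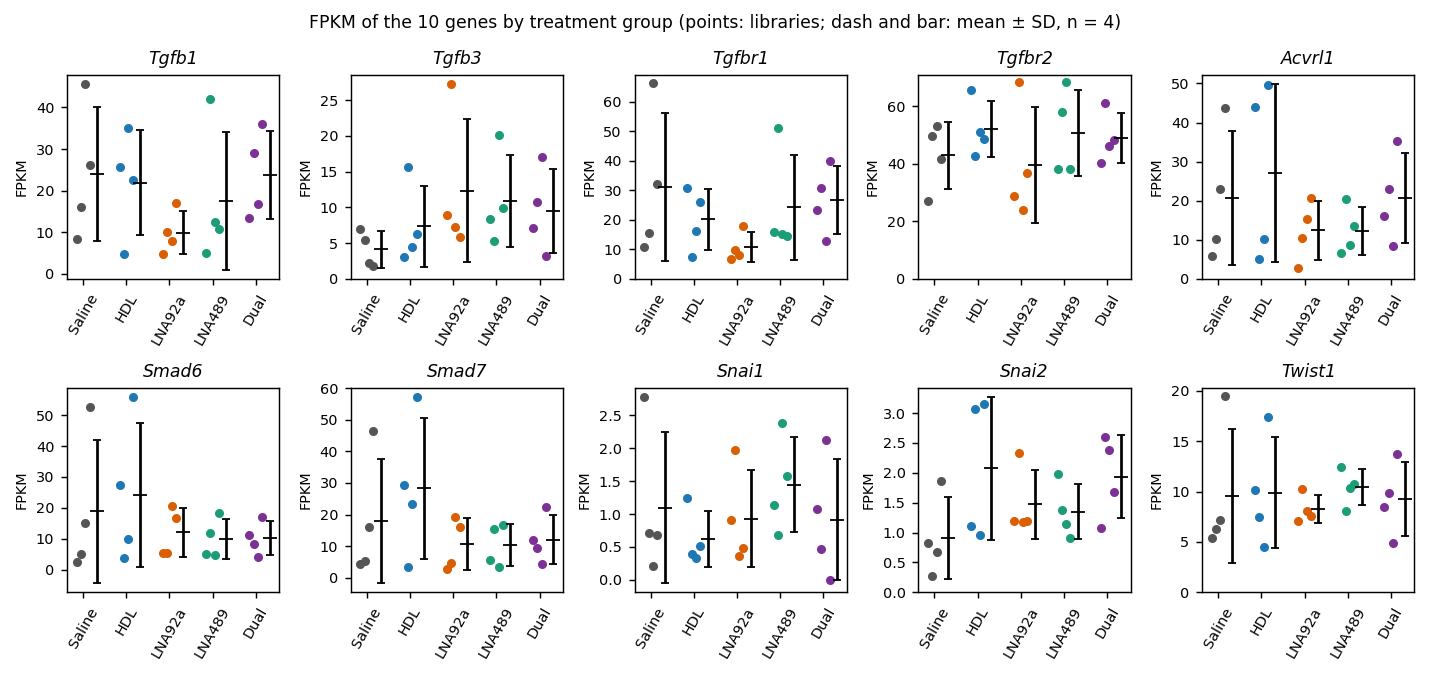
FPKM of each gene by treatment group, with 4 libraries as points and the mean ± SD beside them. The groups overlap for every gene, and the SD is widest for Tgfbr1 with saline (25.1 FPKM), then for Smad6 with HDL and saline (23.3 and 23.1).

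Of 56 other pathway genes listed, 55 were matched and 54 tested. With the endothelial score, 29 changed, 20 of 54 positive beside 13.9% of all genes and 9 of 54 negative beside 14.7%, with a median slope of 0.18 beside 0.02 over all genes. With both scores in 1 fit, 21 of the 54 were called positive and 1 negative, beside 7.55% and 2.11%. The smallest p among the positive belonged to Bmp6, a bone morphogenetic protein (1.62 ± 0.067), Eng, the endothelial co-receptor endoglin (1.06 ± 0.069), Lrrc32, which anchors latent TGF-beta (1.23 ± 0.086), and Thbs1, which activates latent TGF-beta (1.39 ± 0.12), all with adjusted p at or below 1.22e-07. With the fibroblast score, 21 changed, 12 of 54 positive beside 18.7% of all genes and 9 of 54 negative beside 20.8%, so that both counts were near the shares over all genes (median -0.032 beside -0.06). With both scores in 1 fit, 15 were called positive and 0 negative, beside 13.9% and 11.6%. In the fit of the fibroblast score with the adipocyte score, 0 were called. The smallest p among the positive belonged to Ltbp1, a latent TGF-beta binding protein (1.21 ± 0.087), Tgfbr3, the co-receptor betaglycan (0.92 ± 0.080), Bmper, a modulator of bone morphogenetic proteins (1.15 ± 0.14), and Cdh2, N-cadherin (1.17 ± 0.15). In the group comparisons 0 of the 54 passed. The smallest p was that of Tgfb2, the third TGF-beta ligand, in LNA489 against HDL (0.97 ± 0.40, adjusted p = 0.920). Tgfb2 ranged from 0.724 to 9.39 FPKM, the highest library being LNA489 14. Txndc5, Gm29233 and Gm29491 overlap exons of Bmp6, Thbs1 and Tgfb2 on the other strand, so these values are uncertain as that of Tgfb3 is. Gm43422 overlaps exons of Tgfbr3 on the same strand, so its value is uncertain too.

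As levels, Eng ran from 6.08 to 102 FPKM, Bmpr2, a type II receptor, from 8.15 to 47.9 and Id1, a target of bone morphogenetic protein signalling, from 6.64 to 57.8. Among genes often read as mesenchymal, Vim ran from 109 to 460, Fn1 from 33.1 to 339, Cdh2 from 0.049 to 3.09, Zeb1 from 7.08 to 16.7, Zeb2 from 3.79 to 28.0, Acta2 from 12.0 to 194 and Tagln from 0 to 5.46 FPKM. Genes on the other strand overlap exons of Tagln (Gm48529 and Pcsk7), Eng, Fn1, Zeb1 and Zeb2, so these values are uncertain as that of Tgfb3 is. Correlations with the endothelial and fibroblast scores were 0.97 and -0.62 for Eng, -0.68 and 0.87 for Cdh2, 0.64 and -0.12 for Vim and 0.38 and -0.20 for Acta2, as a description.

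The genes whose values were most like those of each of the 10 over the 20 libraries, among 12117 compared, were taken by Pearson r as a description. They were Synpo, Cdh5 and Spon1 for Acvrl1 (r = 0.98 for each), Adra2a, Nuak1 and She for Smad6 (0.95, 0.94 and 0.94), Herc2, Notch1 and Cmip for Smad7 (0.97, 0.95 and 0.95), Arhgdia, Mink1 and Msn for Tgfb1 (0.97, 0.95 and 0.95), and Bicc1, Zfp503 and Mst1r for Tgfb3 (0.95 for each). For Tgfbr1 they were Tnfrsf11a, Tpra1 and Olfr111 (0.96, 0.95 and 0.95), for Tgfbr2 C1qtnf6, Dclk1 and Tstd3 (0.82, 0.80 and 0.77), for Snai1 Prdm6, Ppp1r12b and Tmem147 (0.86, 0.79 and 0.77), for Snai2 Tusc2, Prrg1 and Stau1 (0.75, 0.75 and 0.72) and for Twist1 Tmod2, Ecm2 and Erbb2 (0.87 for each). Cdh5 is itself in the endothelial list.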

How the data were processed

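RNA was taken from aortic endothelium lysed with qiazol, and a Nugen Ovation kit was used for the libraries, per the labels' protocols. The authors deposited variance-stabilized counts on a log2 scale, and FPKM values with gene symbols and lengths. The submitters' processing notes list, without roles, DESeq2 1.18.1, featureCounts 1.15.29, FastQC, STAR 2.5.3a and cutadapt 1.16, and the build GRCm38.p5. The strand of counting and the annotation are not given in the sources used here.

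The 10 genes and all lists were chosen with earlier results of these data known. Reads were recovered by dividing FPKM times gene length by the value of 1 read in that library. For genes up to 3000 bases and 1000 reads, 100% of values lay within 0.1 of a whole number. limma 3.58.1 (R 4.3.3) was fitted to the log2 values with 5 group means (15 residual degrees of freedom, 14 with a score), a mean-variance trend and Benjamini-Hochberg adjustment over all genes tested, and a gene was called at an adjusted p under 0.05. Tests were 2-sided, and the fits were tested on simulated data with 200 changed genes. There, dual against HDL recovered 0%, 20% and 71.5% of changes of 0.5, 1 and 2 log2. The endothelial slope recovered 55%, 88% and 100% of slopes of those sizes per SD. The simulated noise was drawn independently for each gene, whereas in the real libraries many genes moved together with content. These recovered shares may therefore not hold for the real data. Correlations used 100000 permutations. Libraries are separate mice by their numbers in the labels. Coordinates are GENCODE M21 (GRCm38), to which 31903 identifiers matched without their version. Named genes were the 10, up to 4 other pathway genes with the smallest p in each comparison, listed levels, content markers, and the 3 most similar genes with a mean FPKM of at least 1, leaving out predicted-gene and clone symbols. Alternatives were log2(FPKM + 0.1), log2(FPKM + 1), no filter or a mean FPKM of at least 1, array weights, voom on recovered reads, single markers as scores, further scores as covariates, no group term, 2-group fits and leaving out each library. The macrophage and the adipocyte score as covariates were chosen after seeing the data. The level of 1 listed gene is not reported here.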

Additional observations from a re-analysis of the deposited data

Results flagged for a closer look

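In Twist1 among the saline libraries, saline 24 stood apart, with a variance-stabilized value of 8.68 against a median of 7.45 in the other 3, and 19.5 FPKM. Of 50 sets of 4 libraries examined, 1 was singled out, and chance singles out about 1 in 20.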

How the results depend on the processing

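No paired analysis was possible because animal numbers differ between the groups. Between groups, 0 genes were called in each setting run. For the slopes, the calls among the 10 genes kept their counts with either other filter, array weights, Cdh5 and Pdgfra as scores, no group term, or the macrophage score as a covariate. On log2(FPKM + 0.1) 6 rather than 5 endothelial slopes of the 10 were called positive, while over all 16830 genes 3244 rather than 2339 were. With both scores in 1 fit, genes called were 1625 (endothelial) and 4282 (fibroblast), with 0 negative endothelial calls and 1 positive and 2 negative fibroblast calls among the 10. With 4 other scores as covariates, 809 (endothelial), 1 (fibroblast) and 27 (difference) genes were called, and among the 10 these were 3 positive and 0 negative, 0 and 0, and 1 and 0. With the adipocyte score these were 1169, 0 and 36 genes, and 3 and 0, 0 and 0, and 0 and 0. Leaving out 1 library gave 1 to 2 negative endothelial calls. Directions reversed for 3 slopes that were called: on the fibroblast score Acvrl1 had 0.022 with both scores in 1 fit, 0.27 with 4 other scores and 0.57 with the adipocyte score, Smad6 had 0.038 with both scores, and Tgfbr1 had 0.078 with the adipocyte score. The other reversals were of values not called. On log2(FPKM + 0.1), Tgfbr2 had slopes of 0.074 (endothelial), -0.022 (fibroblast) and 0.053 (difference) and correlations of 0.23 and -0.068, Snai2 an endothelial slope of 0.032 and correlation of 0.10, Twist1 a fibroblast correlation of -0.10, and the fibroblast score differed by 0.047 in HDL against saline. Snai2 had endothelial slopes of 0.063 with both scores and 0.093 with the adipocyte score, fibroblast slopes of -0.50 with 4 other scores and -0.20 with the adipocyte score, and differences of 0.43 and 0.30 in these. Twist1 had fibroblast slopes of 0.31 with both scores, 0.25 with 4 other scores, 0.52 with the adipocyte score, 0.0078 with the macrophage score and 0.051 with no group term, and differences of -0.060 with 4 other scores and -0.094 with the adipocyte score. Leaving out 1 library, the Snai2 endothelial slope ran from -0.12 to 0.048 and the Twist1 fibroblast slope from -0.076 to 0.057. The cause was not tested. Snai1 and Snai2 rest on few reads, and groups of 4 mice with widely differing content limit what the group comparisons can show.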

Other observations

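Pairs of the 10 genes with related roles were also set against each other as ratios of FPKM. Smad6 to Smad7 ran from 0.423 to 1.89 over 20 libraries with a median of 0.962. This was narrower than for each gene alone, whose lowest and highest libraries were 22.4-fold (Smad6) and 20.4-fold (Smad7) apart. By group this ratio ran from 0.574 to 1.14 with saline, 0.423 to 1.13 with HDL and 1.04 to 1.89 with LNA92a. It ran from 0.782 to 1.35 with LNA489 and 0.761 to 0.940 in the dual group, and group differences in it were not tested. The value of 0.423 was that of HDL 11, and the next lowest with HDL was 0.930 in HDL 3. HDL 11 also had the highest lymphocyte score (10.9) and the lowest macrophage score (9.31) of the 20 libraries. Tgfbr1 to Acvrl1, the 2 type I receptors, ran from 0.524 to 2.86 and was above 1 in 14 of 20 libraries. Snai2 to Snai1 ran from 0.298 to 7.89 in the 19 libraries with a Snai1 read. Among genes often read as smooth muscle or mesenchymal, Acta2 had 12.0 to 194 FPKM where Tagln had 0 to 5.46. Gm48529 and Pcsk7 overlap Tagln exons on the other strand, so its value is uncertain in the same way as that of Tgfb3. No gene overlaps those of Acta2.

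With both content scores in the limma model, Tgfb3 differed by 0.71 ± 0.23 log2 in HDL against saline (adjusted p = 0.980) and by 0.69 ± 0.24 in dual against saline (adjusted p = 1.000). Tgfbr1 differed in that model by 0.76 ± 0.25 in LNA489 against HDL (adjusted p = 0.989) and by 0.61 ± 0.25 in dual against HDL (adjusted p = 0.849). The model held no macrophage score, which was above that with HDL by 0.63 log2 in LNA489 and by 1.09 in the dual group. The endothelial and fibroblast scores accounted for 78.4% of the Tgfbr1 variance within groups, and for 93.5% together with the macrophage score. Whether the Tgfbr1 differences go with macrophage content was not tested.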
